A study of Homo sapiens with 4 samples.

Results

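The 10 genes followed here mark or drive the shift of a cell between an epithelial and a mesenchymal state: CDH1, EPCAM, CLDN1, CDH2, VIM, FN1, ZEB1, ZEB2, SNAI2 and TWIST1. The list names genes and sets no threshold on their values, though it was drawn up with earlier results of these data known. They are 10 of the 60279 genes listed in each count table. Of these, 9 reached the mean of 1 CPM (counts per 1e6 gene reads) that was required for a ratio to be called, as did 14269 genes in all, while EPCAM stayed below it.

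The RNA came from SUM159, an established triple-negative breast cancer line that is usually placed in the claudin-low group, whose cells look mesenchymal in culture. There was 1 library per condition: untreated cells, cells given palbociclib (an inhibitor of CDK4 and CDK6), cells given indisulam (a sulfonamide that brings the splicing factor RBM39 to the DCAF15 ubiquitin ligase for degradation), and cells given both drugs. All 4 shared the same line and growth medium. The sample labels give 0.5 µM palbociclib and 2 µM indisulam for 10 days, whereas the text describing the series gives 2 µM, 3 µM and 16 h with technical duplicates. The study's methods name Hisat2 for its 16 h splicing experiment, whereas the processing notes of these libraries name TopHat2, as would fit the account of the labels. The files themselves state neither dose nor time, and the combination library can be compared with each single drug at the same stated doses under either account.

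In an epithelial to mesenchymal transition (EMT), transcription factors of the ZEB, SNAI and TWIST families repress genes of cell to cell contact, above all E-cadherin, and cells take up a spindle shape with vimentin filaments, N-cadherin and a fibronectin matrix. Claudin-low breast cancers are named for their low expression of tight junction claudins and sit at the mesenchymal end of this range. Claudin 1 is a sealing protein of tight junctions that is also found outside them in many carcinoma cells.

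With 1 library per condition no p-value can be given, and no difference below has a replicate check. Ratios were taken between counts scaled to the same library total, with 1 scaled count added, and each has an exact 95% interval that covers counting error only. A gene was called when it differed at least 2-fold with an interval excluding equality. A wider yardstick came from the 2 × 2 layout itself: the spread, over genes of similar level, of the departure from additivity (the change with both drugs minus the sum of the changes with each), rescaled to a single ratio. It was 0.62 on the log2 scale for genes of 1 to 5 CPM, 0.37 from 5 to 20 CPM, 0.26 from 20 to 100 CPM and 0.28 above that. It holds real drug interactions as well as noise and does not replace replicates.

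The libraries held 12555908 (untreated), 12691481 (palbociclib), 16712174 (indisulam) and 14359529 (combination) gene reads, and 3 reads, the limit that a count of 0 allows, equalled 0.180 to 0.239 CPM. The line met part of its description. CLDN3 had 0 to 2 reads, CLDN4 4 to 6 and CLDN7 15 to 24, PGR had 0 to 3 and ESR1 4 to 16, while CD44 stood at 706 to 883 CPM. CD24, which is low in most claudin-low cells, stood at 71.6 to 186 CPM, and ERBB2 at 110 to 143 CPM. CD24 also has processed pseudogenes whose shared reads were not counted, so its level is uncertain. Of 8 markers of blood, endothelial and liver cells, 4 or 5 exceeded 3 reads per library and their summed level was 37.4 to 61.0 CPM, highest with palbociclib, where PECAM1 (CD31) reached 40.9 CPM. CD3E had no read in any library, but the leukocyte markers PTPRC (CD45) and CD14 had 153 to 292 and 66 to 116 reads. Whether these markers bear on the genes below was not tested.

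The promoters of 3 genes are shown: CLDN1, the gene that rose most of the 10, FN1, the highest of them in CPM, and ZEB1. ZEB1 encodes an EMT repressor and had a window that held the E-box CAGGTG. Each line gives the 250 bases before a RefSeq transcript start on GRCh38.p14, 5′ to 3′ on the gene's strand, with motif letters in capitals. CLDN1 lies at chr3:190322447-190322696 on the minus strand, FN1 at chr2:215436069-215436318 on the minus strand and ZEB1 at chr10:31318167-31318416 on the plus strand.
CLDN1: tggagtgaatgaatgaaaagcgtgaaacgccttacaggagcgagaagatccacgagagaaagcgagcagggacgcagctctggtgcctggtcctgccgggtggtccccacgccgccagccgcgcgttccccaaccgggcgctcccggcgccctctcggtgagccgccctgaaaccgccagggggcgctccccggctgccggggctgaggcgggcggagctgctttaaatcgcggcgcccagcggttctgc
FN1: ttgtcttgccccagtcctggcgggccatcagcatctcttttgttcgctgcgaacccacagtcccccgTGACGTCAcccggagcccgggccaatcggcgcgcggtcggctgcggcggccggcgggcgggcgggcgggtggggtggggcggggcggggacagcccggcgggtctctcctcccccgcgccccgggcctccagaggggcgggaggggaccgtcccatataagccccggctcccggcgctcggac
ZEB1: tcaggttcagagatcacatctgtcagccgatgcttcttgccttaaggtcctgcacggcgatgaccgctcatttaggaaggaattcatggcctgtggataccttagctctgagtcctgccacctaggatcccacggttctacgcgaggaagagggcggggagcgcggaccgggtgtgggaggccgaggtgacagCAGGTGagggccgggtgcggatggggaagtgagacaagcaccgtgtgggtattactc
The capitals in FN1 spell TGACGTCA, the cyclic AMP response element, which begins 183 bases before the start. Those in ZEB1 spell CAGGTG, an E-box form bound by ZEB and SNAI factors, and begin 57 bases before the start. No 2 motif matches overlapped in these windows. The motifs searched on both strands were CAGGTG, the broad AP-1 pattern TGANTCA (N being any base) and TGACGTCA. They occurred in 17.49%, 6.573% and 1.646% of all 35116 RefSeq windows of the same length. Among the members, 13 windows of 6 of the 10 genes were searched (CLDN1, FN1, VIM, CDH2, ZEB1 and ZEB2). ZEB1 had 7 of these windows, of which 2 held an E-box and 5 did not, while the other genes had 1 or 2 windows each and no E-box. The pattern TGANTCA matched in 1 CDH2 window, as TGAATCA. The printed CLDN1 window, with 68.8% G and C, held none of the 3 motifs. A match is a description of letters and not a binding site.

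CLDN1 changed most of the 10 genes. It had 112 reads (8.92 CPM) in untreated cells, 101 (7.96 CPM) with palbociclib, 768 (46.0 CPM) with indisulam and 1464 (102 CPM) with both drugs. Untreated and palbociclib cells were alike within counting error, and both indisulam libraries stood well above them. Against untreated cells the level was 5.12-fold with indisulam (log2 2.36, 95% interval 2.08 to 2.66) and 11.3-fold with the combination (log2 3.50, 3.24 to 3.81). Palbociclib alone gave log2 -0.16 (-0.57 to 0.24), but added to indisulam it gave a further 2.22-fold (log2 1.15, 1.02 to 1.28). The level with both drugs therefore exceeded the sum of the separate changes by 1.31 on the log2 scale (0.91 to 1.72), which is 3.55 times the spread of that measure over genes of 20 to 100 CPM. CLDN1 is also a member of published senescence lists that the study used. Its annotated span on GRCh38, chr3:190305707-190322446 on the minus strand, overlapped no other annotated gene.

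**Figure D1:**
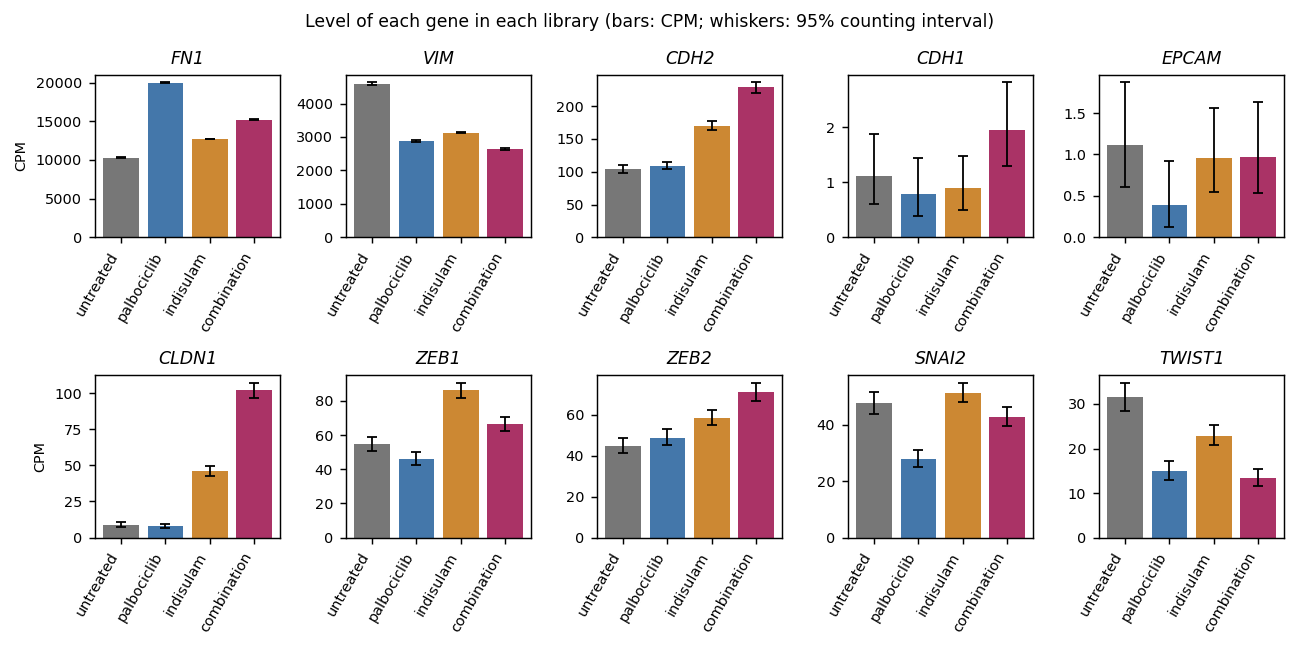
Bars give the level of each gene in CPM in the untreated, palbociclib, indisulam and combination libraries, on a separate linear scale for each gene, and whiskers give the exact 95% counting interval. CLDN1 rises from 8.92 to 102 CPM across the untreated and combination libraries, TWIST1 is low in both palbociclib libraries, and the intervals of EPCAM are wider than its bars, as are those of CDH1 outside the combination.

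The classical cadherins did not exchange places. CDH2 encodes N-cadherin, the cadherin of mesenchymal and neural cells, and had 1306, 1386, 2849 and 3281 reads in the untreated, palbociclib, indisulam and combination libraries, or 104, 109, 170 and 228 CPM. It was therefore higher in both libraries that received indisulam. It stood at 1.64-fold with indisulam (log2 0.71, 0.62 to 0.81), which is below the 2-fold limit, and at 2.20-fold with the combination (log2 1.13, 1.04 to 1.23), which was called. Added to palbociclib, indisulam gave 2.09-fold (log2 1.06, 0.97 to 1.16), a call that was lost at log2 0.99 when the libraries were scaled by the trimmed mean of M-values (TMM).

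CDH1 encodes E-cadherin, the adhesion molecule of epithelial sheets, and stayed close to the limit of detection. It had 14, 10, 15 and 28 reads in the same order of libraries, or 1.12, 0.79, 0.90 and 1.95 CPM. The intervals of the 4 levels overlapped. Its ratio was called for the combination against palbociclib (log2 1.23, 0.22 to 2.51) and against indisulam (log2 1.06, 0.17 to 2.13), and not against untreated cells (log2 0.77, -0.17 to 1.85). These 2 called ratios were 1.98 and 1.70 times the spread for genes of that level, and the one against indisulam fell to 0.88 with a pseudocount of 5. In each library CDH2 exceeded CDH1 in CPM per kilobase of exon, by 66.0-fold (39.2 to 121) in untreated cells, 98.1-fold (53.2 to 205) with palbociclib, 134-fold (81.4 to 241) with indisulam and 83.0-fold (57.3 to 125) with both, and these intervals overlapped one another. The size of these folds depends on the exon length taken for each gene, which the intervals leave out.

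EPCAM, the epithelial cell adhesion molecule, had 14 reads in untreated cells, 5 with palbociclib, 16 with indisulam and 14 with both drugs. That is 1.12, 0.39, 0.96 and 0.97 CPM, and the intervals of all its ratios included equality. A difference in EPCAM was not detectable at this depth. The 2 epithelial adhesion genes thus lay between 0.39 and 1.95 CPM in each library while CLDN1, also an epithelial junction gene, stood at 7.96 to 102 CPM.

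FN1 and VIM, which encode fibronectin and vimentin, were by far the most abundant of the 10 genes, and their ratios to untreated cells had opposite signs without a call. FN1 had 129478 reads (10312 CPM) in untreated cells, 253480 (19972 CPM) with palbociclib, 212295 (12703 CPM) with indisulam and 218188 (15195 CPM) with both. It was higher in each treated library than in the untreated one and highest with palbociclib alone. The ratio with palbociclib was 1.94-fold (log2 0.95, 0.94 to 0.96), just short of the call, and it reached log2 1.01 with upper-quartile scaling, which made it a call.

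The ratio of FN1 for indisulam differed in sign with the other drug. It was log2 0.30 (0.29 to 0.31) without palbociclib and -0.39 (-0.40 to -0.39) in its presence, and the level with both drugs fell short of the sum of the separate changes by 0.70 on the log2 scale (-0.71 to -0.68). That departure was below the 2-fold limit, and the counting interval is narrow only because the gene is so abundant. FN1 belongs to another senescence list that the study used. Membership of such lists is not given here for members other than CLDN1 and FN1. How the members' changes compare with those lists was not tested.

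VIM had 57726 reads (4598 CPM) in untreated cells, 36565 (2881 CPM) with palbociclib, 52331 (3131 CPM) with indisulam and 37945 (2643 CPM) with both drugs. The untreated library was the highest. The log2 ratios to it were -0.67 (-0.69 to -0.66), -0.55 (-0.57 to -0.54) and -0.80 (-0.82 to -0.78), none of them a call at 2-fold. Per kilobase of exon, FN1 stood at 0.674 (0.668 to 0.681) times VIM in untreated cells. The ratio was 2.08 (2.06 to 2.11) under palbociclib, 1.22 (1.21 to 1.23) under indisulam and 1.73 (1.71 to 1.75) under the combination. Here too the size of each ratio depends on the exon length taken, which the intervals leave out. In bulk RNA, fewer cells that express a gene and less of its RNA per cell cannot be told apart.

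Among the EMT transcription factors TWIST1 fell. It encodes a basic helix-loop-helix factor of the mesoderm that represses E-cadherin, and it had 396 reads (31.5 CPM) in untreated cells, 190 (15.0 CPM) with palbociclib, 383 (22.9 CPM) with indisulam and 191 (13.3 CPM) with both drugs. The palbociclib libraries were the 2 low ones. TWIST1 stood at 0.476 of its untreated level with palbociclib (log2 -1.07, -1.33 to -0.82) and at 0.423 with the combination (log2 -1.24, -1.50 to -0.99), and both were called. Palbociclib added to indisulam gave log2 -0.78 (-1.04 to -0.53), an estimate that shares no library with that of palbociclib alone. Indisulam alone gave log2 -0.46 (-0.67 to -0.25).

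SNAI2 encodes the zinc finger repressor Slug, which is also a factor of basal mammary cells. It had 597, 355, 859 and 615 reads in the untreated, palbociclib, indisulam and combination libraries, or 47.5, 28.0, 51.4 and 42.8 CPM. The palbociclib library was the low one, at log2 -0.76 (-0.96 to -0.57) to untreated cells, which is 2.92 times the spread but no call. With indisulam present, palbociclib gave log2 -0.26 (-0.41 to -0.11).

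ZEB1 and ZEB2, zinc finger homeobox repressors of E-cadherin, had positive ratios for indisulam, and neither was called in any comparison. ZEB1 had 685, 587, 1439 and 951 reads (54.6, 46.3, 86.1 and 66.2 CPM), highest with indisulam alone. Indisulam gave log2 0.66 (0.53 to 0.79) without palbociclib and 0.52 (0.37 to 0.67) with it, while palbociclib gave -0.24 (-0.40 to -0.08) and -0.38 (-0.50 to -0.26) without and with indisulam. ZEB2 had 564, 620, 979 and 1022 reads (44.9, 48.9, 58.6 and 71.2 CPM), highest with both drugs, at log2 0.66 (0.51 to 0.81) to untreated cells.

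ZEB1-AS1, a long noncoding RNA on the opposite strand that overlaps the start of ZEB1, had 93, 74, 233 and 170 reads, 15.6% of the ZEB1 reads over the 4 libraries. The library kit keeps strand, but whether the counting used it is not given in the sources used here, so a share of reads could belong to either gene. The reads of genes that overlap the other members came to at most 1.49% of the member's own, for a noncoding RNA with 1 read opposite CDH1.

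**Figure D2:**
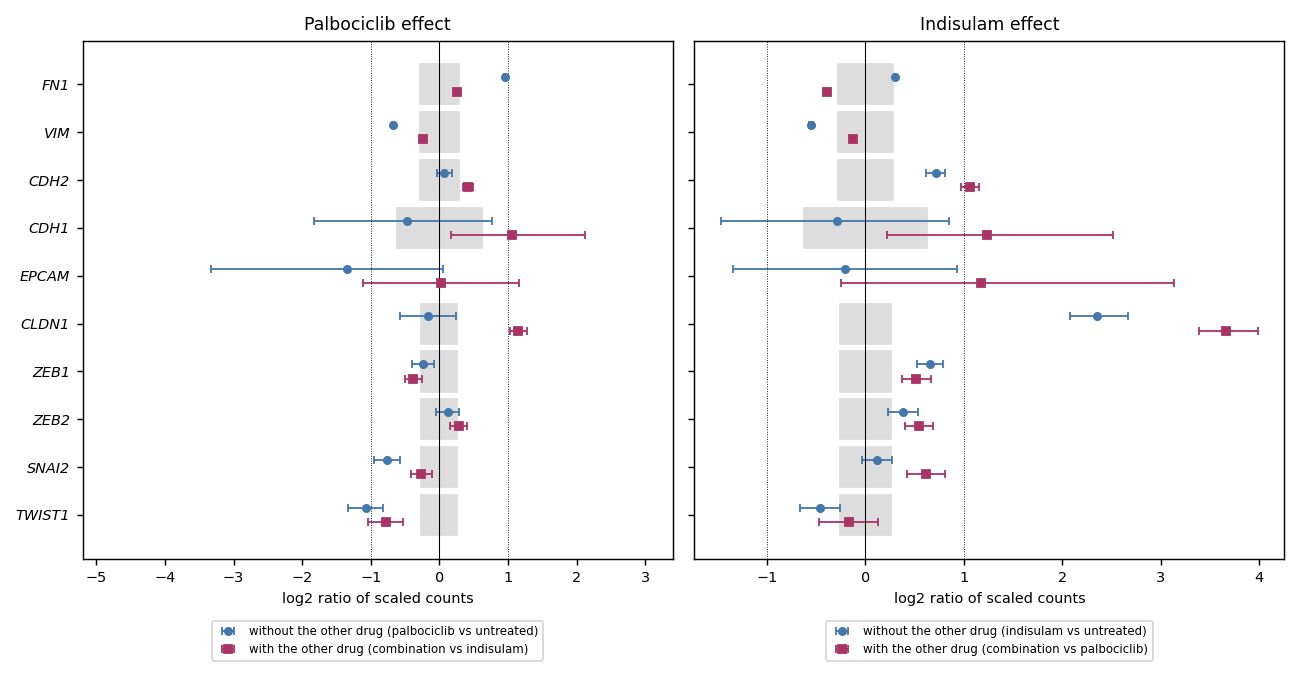
Points give the log2 ratio for palbociclib (left) and indisulam (right), each without the other drug (circles) and with it (squares), with 95% counting intervals. The grey band is the spread estimated from genes of similar level (none for EPCAM), and dotted lines mark 2-fold. CLDN1 lies far right for indisulam in both estimates, and TWIST1 lies left for palbociclib in both. CLDN1, CDH1 and EPCAM change side for palbociclib, and CDH1, EPCAM and FN1 change side for indisulam.

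The 2 estimates of each drug's change share no library, so their signs can be set side by side. For palbociclib, VIM, ZEB1, SNAI2 and TWIST1 were lower and FN1 higher in both, with intervals that excluded equality. For indisulam the same held for CDH2, ZEB1, ZEB2 and CLDN1 (higher) and for VIM (lower). These intervals cover counting error only, and some changes lay within or level with the spread over genes of similar level. For palbociclib, ZEB1 stood at 0.91 times it without indisulam, and VIM at 0.87, FN1 at 0.92 and SNAI2 at 1.00 with it. VIM stood at 0.45 for indisulam added to palbociclib. Both estimates exceeded it for TWIST1 with palbociclib (4.10 and 2.99 times) and for CDH2, ZEB1, ZEB2 and CLDN1 with indisulam. CLDN1 and CDH1 had negative ratios for palbociclib alone (CDH1 at log2 -0.47, -1.83 to 0.77) and called positive ones for palbociclib added to indisulam.

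Counts of calls among the 9 tested members were read beside the share of all tested genes called. Palbociclib against untreated gave 1 call (TWIST1, lower), or 11.1%, where 10.7% of all genes were called, 5.84% higher and 4.87% lower. Indisulam against untreated gave 1 (CLDN1, higher), where 15.1% of all genes were called, 8.42% higher and 6.67% lower. The combination against untreated gave 3 (CLDN1 and CDH2 higher, TWIST1 lower), or 33.3%, where 23.4% of all genes were called, 12.9% higher and 10.5% lower.

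Indisulam added to palbociclib also gave 3 calls (CLDN1, CDH2 and CDH1, all higher), where 16.9% of all genes were called, 9.51% higher and 7.36% lower. Palbociclib added to indisulam gave 2 (CLDN1 and CDH1, both higher), or 22.2%, where 8.2% of all genes were called, 5.05% higher and 3.15% lower. CLDN1 and CDH1 also exceeded additivity by 2-fold, as 3.93% of all genes did, while 3.83% fell short of it by as much (7.77% together). With 9 genes a single member makes 11.1%, so these shares do not set the members apart. The median log2 ratio of the 9 was -0.24, 0.30, 0.56, 0.54 and 0.26 in the order of the 5 comparisons above, and that of all tested genes was -0.02, 0.06, 0.05, 0.07 and -0.01.

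Levels between genes were compared in CPM per kilobase of annotated exon. In untreated cells VIM (888) and FN1 (599) led, followed by TWIST1 (15.8), SNAI2 (14.5), CDH2 (12.1), ZEB1 (6.31), CLDN1 (2.46), ZEB2 (1.72), EPCAM (0.459) and CDH1 (0.184). In that order TWIST1 and SNAI2, and likewise EPCAM and CDH1, were neighbours whose intervals overlapped. In the other 3 libraries FN1 stood above VIM.

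CLDN1 and TWIST1 changed place most, in opposite directions. TWIST1 was the third of the 10 in untreated cells, the fifth with palbociclib, the sixth with indisulam and the seventh with both drugs. CLDN1 was the seventh in untreated and palbociclib cells, the fifth with indisulam (12.7) and the third with the combination (28.1), where its interval overlapped that of CDH2 (26.6). Per kilobase, CDH2 exceeded CLDN1 by 4.93-fold (4.06 to 6.03) in untreated cells and 5.80-fold (4.74 to 7.17) under palbociclib. The ratio was 1.57 (1.45 to 1.70) under indisulam and 0.947 (0.890 to 1.01) under both. The middle of the order depends on the length used, and so do the ratios between genes, whose intervals leave this out. With the Ensembl canonical transcript, a choice made after the data had been seen, CDH2 was the third gene in each library. CLDN1 was then the eighth in untreated cells and the fourth with the combination, at 29.6 beside 56.9 for CDH2. TWIST1 fell less by that length, from rank 5 in untreated and palbociclib cells to 6 with indisulam and 7 with both drugs. FN1 and VIM at the top and EPCAM and CDH1 at the bottom kept their places.

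**Figure D3:**
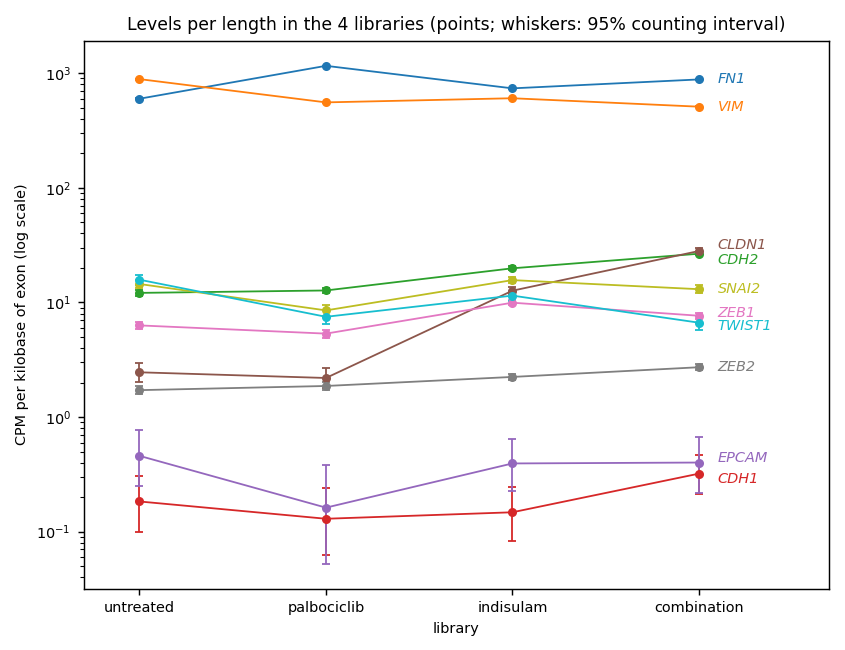
Points give CPM per kilobase of exon on a log scale for the 10 genes in the 4 libraries, with 95% counting intervals, and lines only join the points of a gene. FN1 and VIM lie at 511 or above, CDH1 and EPCAM below 1, and CLDN1 climbs from 2.46 in untreated cells to 28.1 with the combination.

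For each member with a mean of at least 5 CPM, the genes with the most similar pattern were sought among 11227 others, by Euclidean distance over the 3 log2 ratios to untreated cells. These 3 ratios share the untreated library. CLDN1 had no gene within 0.3. Its nearest were RAB3B (distance 0.35, with log2 ratios of 0.05, 2.64 and 3.53 for palbociclib, indisulam and the combination), FMN1 (0.61) and GUCA1B (0.64).

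TWIST1 had 38 genes within 0.3, the nearest being ECSIT, PLD1 and ANKRD36B at distances of 0.09 to 0.11. FN1 had 68 (nearest THTPA, ZNF668 and ASB16-AS1) and CDH2 had 102 (HSPA13, PLOD2 and PLS3). The others were in more crowded company, with 129 genes for SNAI2 (TMEM41B, DPH6 and UGDH), 193 for VIM (DGKA, RUVBL2 and LIG3), 211 for ZEB1 (SINHCAF, PKD1 and IL18BP) and 610 for ZEB2 (among the nearest MAP2K3 and M6PR).

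The rest of the EMT and adhesion programme was read from 10 lists of 174 further genes, 111 of them tested. Of the 111, 28 were called higher and 14 lower with the combination against untreated cells, beside 12.9% and 10.5% of all tested genes. Palbociclib gave 15 higher and 4 lower, beside 5.84% and 4.87% of all genes, and indisulam gave 18 higher and 10 lower, beside 8.42% and 6.67%. The median log2 ratio of the 111 with the combination was 0.19, against 0.05 for all tested genes.

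Other EMT transcription factors split. SOX9 (37 reads in untreated and 141 in combination cells, log2 1.71) and FOXQ1 (56 and 208, log2 1.68) were higher, and SNAI1 and KLF8 (109 and 58, log2 -1.09) lower, out of 10 tested with a median of 0.40. Those calls stood beside 12.9% of all genes called higher and 10.5% lower. SNAI1 encodes Snail, the close relative of SNAI2, and was highest in untreated cells with 259 reads, ahead of palbociclib with 156, indisulam with 114 and both drugs with 52 (log2 -2.49, -2.97 to -2.08). SNAI2 stood at log2 -0.15 (-0.32 to 0.01) in the same comparison.

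Of 7 tested epithelial transcription and splicing factors, which had a median of 0.67 with the combination against untreated cells, 2 were called there and both were higher. Of all genes 12.9% were called higher there and 10.5% lower. EHF, an ETS factor of epithelia, had 25 reads in untreated cells, 101 with palbociclib, 675 with indisulam and 741 with both (log2 4.65, 4.12 to 5.33). FOXA1, a luminal pioneer factor, had 19 and 57 reads in untreated and combination cells (log2 1.35, 0.62 to 2.22). ELF3, named after its values were seen, had 7 reads in untreated cells, 3 with palbociclib, 97 with indisulam and 13 with both. It was called higher with indisulam alone (log2 3.22) and lower when palbociclib was added to indisulam (-2.59). ESRP1 and ESRP2, the epithelial splicing regulators, had at most 7 reads in any library, and GRHL2, OVOL1 and OVOL2, which oppose ZEB1, had at most 1.

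Of 23 other claudins, 9 had no read in any library and 12 never exceeded 3 reads. Of the 6 tested, with a median of 0.30 with the combination, 1 was called higher and 1 lower, beside 12.9% and 10.5% of all genes. CLDN14 had 0 reads in untreated cells, 4 with palbociclib, 12 with indisulam and 43 with both, at least 12.5-fold higher with the combination against a floor of 3 reads in the untreated library. That bound leaves out the counting error of the 43 reads, and the exact interval began at log2 3.29. CLDN23 had 23, 11, 13 and 11 reads (log2 -1.18, -2.44 to -0.16), a call lost with a pseudocount of 5. The most abundant other claudin, CLDN12, named after its values were seen, had 448, 454, 936 and 988 reads (log2 0.95, 0.78 to 1.11 with the combination), which was no call.

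Among 13 other tight junction genes tested (median 0.28), 4 were higher and 1 lower with the combination, beside 12.9% and 10.5% of all genes. CGNL1 (paracingulin, 26 to 192 reads, log2 2.65), LSR (angulin 1, 13 to 92 reads, log2 2.55) and OCLN (occludin, 29 to 79 reads, log2 1.23) were the most raised, and TJP3 (ZO-3) had 47 reads in untreated cells and 3 in the combination (log2 -3.77, -6.49 to -2.53). Of 8 desmosome genes (median 0.25), PERP (log2 1.52) and DSP, which encodes desmoplakin (1.25), were higher and PPL, which encodes periplakin (-1.49), was lower.

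With the combination 12.9% of all genes were called higher and 10.5% lower. Of 8 other cadherins tested, none was called higher with the combination (median -0.53) and 3 were lower, CDH15 (log2 -2.80), CDH24 (-1.56) and CDH6 (-1.29). Of these CDH6 (K-cadherin) was the most abundant, with 856 reads in untreated cells, 510 with palbociclib, 618 with indisulam and 400 with both. With indisulam alone 2 of the 8 were called higher and 3 lower (median -0.80), beside 8.42% and 6.67% of all genes. The higher ones were CDH8 (493 reads in untreated cells and 1614 with indisulam, log2 1.30) and CDH13 (1543 and 4263, log2 1.05). The lower ones were CDH3 (97 and 37 reads), CDH15 (42 and 12) and CDH18 (744 and 482). CDH8, CDH13, CDH3 and CDH18 were named after their values were seen. With both drugs CDH8 and CDH13 stood at log2 0.94 and 0.81, which were no calls. Catenins and nectins gave 2 calls, with NECTIN1 higher (log2 1.48) and CTNNAL1 lower (-1.03) of 11 tested, at a median of 0.19.

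Epithelial surface genes were called in both directions: of 10 tested (median -0.40), CD24 was higher (log2 1.38) and 3 were lower, among them SCNN1A (-1.94) and LAMA5 (-1.08). Of all genes 12.9% were called higher and 10.5% lower in that comparison. SCNN1A, a sodium channel subunit, had 683, 1007, 329 and 203 reads in the 4 libraries in the usual order, and LAMA5, a laminin chain of epithelial basement membranes, had 3253, 4144, 2980 and 1765. Both were highest with palbociclib alone and lowest with both drugs.

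Among 31 mesenchymal structural genes (median 0.47), 12 were higher and 2 lower with the combination, beside 12.9% and 10.5% of all genes, and 10 were higher and none lower with palbociclib, beside 5.84% and 4.87%. CNN1, which encodes calponin, went from 0 reads in untreated cells to 53 with the combination (at least 15.4-fold higher against the same floor, with an exact interval from log2 3.60), LUM (lumican) from 6 to 390 (log2 5.63, 4.69 to 7.28) and TAGLN (transgelin) from 594 to 5621 (log2 3.05, 2.93 to 3.17). The lower ones were PDGFRB (log2 -2.35) and S100A4 (-1.21). Of the fibronectin receptor genes, 7 were tested (median 0.69), and ITGAV (log2 1.47), SDC4 (1.10) and ITGB1 (1.10) were called higher and none lower. In these libraries VIM therefore stood lower beside several mesenchymal genes that stood higher, and CLDN1 higher beside CDH1 and EPCAM at no more than 1.95 CPM. Epithelial genes were not all that low. The keratin genes KRT8 and KRT18 stood at 416 to 575 and 162 to 249 CPM, while KRT19 had 2 to 12 reads. These keratin genes were named after their values were seen.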

How the data were processed

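Per the labels, the libraries were made from poly(A) RNA of SUM159 cells with a stranded kit, and the study's methods give single 65 bp reads for its expression libraries. The submitters' processing notes name TopHat2 2.1, HTSeq and GRCh38, and the authors deposited raw counts per Ensembl gene with no normalization. The strand setting and annotation release are not given in the sources used here. Rows that name no gene (9.61% to 10.1% of all reads: not unique, ambiguous or in no feature) were left out. Gene totals were 12555908 to 16712174 per library, and 4.90% to 7.33% of them were mitochondrially encoded.

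Counts were scaled to the gene total, following the study's relative total size factor. Ratios used a pseudocount of 1, a mean of at least 1 CPM and exact conditional 95% (Clopper-Pearson) intervals in scipy 1.17.1, and the scripts were tested on simulated data. TMM and upper-quartile factors came from edgeR 4.0.16 and median-of-ratios factors from DESeq2 1.42.0, as alternatives without a model fit. Symbols, spans and lengths came from GENCODE 44, and promoters from RefSeq.

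Named genes were all 10 members, up to 3 called genes per list and direction with the largest ratios of combination to untreated, genes that check the line, the 3 nearest patterns per member, and overlapping genes. PECAM1, CD3E, PTPRC and CD14 belong to the list of other cell types, while ESRP1, ESRP2, GRHL2, OVOL1 and OVOL2 were named after their values were seen. The members and lists were chosen with earlier results of these data known, and a few genes that the rules would name are not reported here.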

Additional observations from a re-analysis of the deposited data

Results flagged for a closer look

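A drug's change had opposite signs without and with the other drug, each with an interval excluding equality, for FN1 and for 2 named genes of the adhesion lists. With 1 library per condition the differences were not tested. Indisulam gave FN1 a log2 ratio of 0.30 without palbociclib and -0.39 with it. Palbociclib gave SCNN1A, a sodium channel subunit, 0.54 without indisulam and -0.48 with it. LAMA5, a laminin chain of epithelial basement membranes, had 0.33 and -0.54.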

How the results depend on the processing

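No paired analysis was possible because each condition had 1 library, and for the same reason no replicate could be left out. Of 85 log2 ratios recomputed under 8 settings none changed sign while called, but these settings could hardly have brought that about. The filters and the fold limit leave the ratios unchanged, and a pseudocount of 5 shrinks ratios of 2 libraries toward equality. Of the 43 ratios called, 4 lost the call in at least 1 setting. CDH2 in combination against palbociclib lost it with TMM (0.99). With a pseudocount of 5, CDH1 against indisulam (0.88) and CLDN23 (-0.96) fell below the 2-fold limit. The CDH1 departure from additivity (1.24) lost its call there because its interval then included additivity. FN1 with palbociclib became a call with upper-quartile factors (1.01), which made 2 members called there. With a pseudocount of 5, 1 member remained called for palbociclib added to indisulam and 1 for the departure from additivity. A mean of at least 5 CPM left 12 of the called ratios untested, all 3 of CDH1 and 9 of listed genes with the combination (CDH15, CLDN14, CLDN23, CNN1, FOXA1, LSR, OCLN, SOX9 and TJP3). It left 2 members called for the combination against palbociclib, 1 for palbociclib added to indisulam and 1 for the departure, with 9 listed genes called for palbociclib added to indisulam. Over all genes, that filter gave 833 calls with palbociclib, 1212 with indisulam, 2104 with the combination, 1396 for the combination against palbociclib, 544 against indisulam and 582 departures, beside 1529, 2153, 3341, 2407, 1170 and 1108 as reported. Without a filter the combination against indisulam gave 1929. A 1.5-fold limit gave 3506, 4466, 6015, 4651, 3143 and 2684. Under it 4 members were called with palbociclib, 3 with indisulam and 5 with the combination, and 46, 50, 33 and 44 listed genes with palbociclib, with indisulam, for palbociclib added to indisulam and for the departure. Scaling moved the median of all genes by less than 0.1. In the order per length, 10 of 40 ranks moved with the canonical transcript length, which was chosen after seeing the data. Counting error limits CDH1 and EPCAM, at 5 to 28 reads per library, and none of the intervals covers the spread between cultures.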
